A study of Mus musculus with 9 samples.

Results

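The genes described here encode the subunits, assembly chaperones and activators of the proteasome, chosen by symbol: Psma, Psmb, Psmc, Psmd or Psme followed by a number, without the interferon-induced subunits Psmb8, Psmb9 and Psmb10. The brightest probe set stood for each gene, and only probe sets annotated with a single gene were used. The rule found 41 of 18193 genes measured. They comprise 16 genes of the 20S particle, 20 of the 19S particle, 2 of the 11S activator and 1 of the PA200 activator. The other 2 genes, Psmc3ip and Psme3ip1, match the symbol without encoding a subunit. Psme2, the partner of Psme1 in 11S, was not analysed here because its probe set names more than 1 gene.

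RNA of sorted bone marrow cells from C57BL/6 mice of either sex, aged 4 to 10 weeks, was measured on 9 Affymetrix arrays. Neutrophils (c-kit- Gr1+ Mac1+) were mature cells, and there were 3 arrays for them. MAC1+ myeloblasts (c-kit+ Gr1+ Mac1+) and MAC1- myeloblasts (c-kit+ Gr1+ Mac1lo/-) had 3 arrays each and were sorted as lacking lymphoid and erythroid antigens. All cells were normal, with no transgene or treatment given in the labels, and whether arrays of a group hold RNA of different animals is not stated, so the p-values cover the spread between arrays, and that spread may be technical.

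The proteasome degrades proteins that carry ubiquitin chains. Its 20S core is a barrel in which outer rings of alpha subunits gate the entrance and inner rings of beta subunits hold the protease sites of Psmb5, Psmb6 and Psmb7. The 19S particle caps the barrel: a ring of ATPases (Psmc) unfolds the substrate, and non-ATPase subunits (Psmd) bind ubiquitin and remove it. The 11S and PA200 activators open the barrel without unfolding ubiquitylated proteins. In mammalian cells the transcription factor Nfe2l1 is known to raise proteasome genes together through antioxidant response elements, and NF-Y binds CCAAT boxes.

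Because these genes are known to share promoter elements, their promoters were searched for TGACNNNGC, the antioxidant response element core, and for CCAAT, on both strands, from 250 bases before to 50 after the start of transcription (RefSeq, GRCm38.p6). Entries were found for 34 of 41 members, with 37 promoters. TGACNNNGC stood in 6 of these 37 promoters (16.22%), against 12.39% of all 32851 promoters, and CCAAT in 15 of 37 (40.54%), against 37.41%. A letter match is a description, not a binding site. The upstream 250 bases of Psmb5, which encodes the chymotrypsin-like protease, show where the element lies in a promoter (chr14:54617996-54618245, minus strand, with the match, which begins 47 bases before the start, in capitals).
Psmb5 upstream: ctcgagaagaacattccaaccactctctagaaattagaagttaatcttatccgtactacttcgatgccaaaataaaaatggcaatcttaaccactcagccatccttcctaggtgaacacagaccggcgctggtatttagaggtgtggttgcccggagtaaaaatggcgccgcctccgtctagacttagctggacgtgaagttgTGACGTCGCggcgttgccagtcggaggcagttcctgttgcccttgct
The matches in the other 5 promoters follow with their flanks, on the strand of the gene; in Psmc6, Psmd12 and Psme4 the capitals are the reverse complement of the element, and for Psmd12 the window ends the flank early. None of the 6 matches overlaps a CCAAT box.
Psmb6 (chr11:70525338-70525366): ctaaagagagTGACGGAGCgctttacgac
Psmc6 (chr14:45329587-45329615): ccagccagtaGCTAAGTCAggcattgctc
Psmd9 (chr5:123228149-123228177): atctagccggTGACCCCGCccacttccaa
Psmd12 (chr11:107479278-107479299): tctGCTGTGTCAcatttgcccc
Psme4 (chr11:30771758-30771786): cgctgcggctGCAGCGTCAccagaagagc
The 6 genes come from 20S, 19S and PA200. Their differences between neutrophils and MAC1+ myeloblasts, described below, ran between -1.85 ± 0.17 for Psmd9 and -0.35 ± 0.14 for Psme4 in log2 units (± standard error, here and below).

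The labels were checked against sort markers. Kit lay between 6.79 and 8.44 in neutrophils, 11.64 and 11.77 in MAC1+ myeloblasts, and 11.56 and 11.66 in MAC1- myeloblasts, as log2(intensity + 16), the scale used throughout, on which 4 is an intensity of 0. Itgam, the Mac1 alpha chain, averaged 11.55 ± 0.48 in neutrophils, 9.69 ± 0.20 in MAC1+ myeloblasts and 6.45 ± 0.04 in MAC1- myeloblasts (SD, n = 3 each). Neutrophil array 1 stood apart from the other 2. It held 64.5 on the second principal component of all genes, which took 9.42% of the variance, against -23.1 and -37.3, and the mean of the 4 primary granule genes (of 4 listed), made in immature granulocytes, was 11.56 there, against 9.54 and 8.47. The same mean lay between 13.86 and 14.13 in MAC1+ myeloblasts and between 13.87 and 14.08 in MAC1- myeloblasts. The 6 genes of neutrophil granules and late neutrophils averaged 13.175 to 13.317, 9.864 to 9.995 and 6.497 to 7.252 (neutrophils, MAC1+ and MAC1- myeloblasts). Among them Ltf averaged 13.58, 13.71 and 6.81 in this order, and Camp 13.64, 13.85 and 9.65. The other genes of this list, such as Mmp8 (13.69, 7.22 and 7.18), were higher in neutrophils than in MAC1+ myeloblasts. Cd34, a progenitor marker, averaged 6.35 in MAC1+ and 11.69 in MAC1- myeloblasts. The 6 monocyte markers (of 6 listed) averaged 9.65 to 10.43 in neutrophils, 9.17 to 9.34 in MAC1+ myeloblasts and 12.82 to 12.95 in MAC1- myeloblasts, and the 4 dendritic cell markers 6.71 to 7.79, 5.46 to 5.93 and 5.67 to 5.91. The 3 erythroid markers measured, of 5 listed, averaged 5.65 to 7.02, 4.81 to 5.34 and 4.81 to 5.43 in the same order, and 3 T and NK cell markers stayed near the floor in all groups (4.61 to 5.10). The 3 B cell markers measured, of 4 listed, averaged 5.82 to 6.57 in neutrophils and 6.77 to 7.21 over the 6 myeloblast arrays, and among them Cd79b averaged 6.38 ± 0.17 in neutrophils, 9.43 ± 0.24 in MAC1+ myeloblasts and 10.06 ± 0.16 in MAC1- myeloblasts (SD, n = 3 each). The 4 eosinophil and mast cell markers averaged 5.08 to 5.18, 5.31 to 5.97 and 5.66 to 6.21 in the order above. Neutrophil array 1 was also the highest of its group for several lists of other lineages. Erythroid markers averaged 7.02 there, against 6.17 and 5.65, and dendritic cell markers 7.79, against 6.71 and 6.72. B cell markers averaged 6.57, against 6.28 and 5.82, and 3 megakaryocyte markers 7.39, against 6.76 and 6.73. The monocyte markers did not follow: array 1 gave 10.33, between the 10.43 and 9.65 of the other arrays. The part of these cells, or of cell maturity, in the differences below was not tested. The median gene differed by 0.05 between neutrophils and either myeloblast group and by -0.01 between the myeloblast groups.

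Proteasome transcripts were lower in neutrophils than in myeloblasts across both main particles. Against MAC1+ myeloblasts 35 of 41 members fell, 0 rose and 6 did not pass the test (limma, Benjamini-Hochberg adjusted p under 0.05 over 18193 genes), which is 85.4% of the members, where 28.4% of all genes were called lower and 19.7% higher. The median difference was -1.05 in log2 units, a 2.07-fold lower level, with quartiles at -1.62 and -0.79. Among the 25% of genes with the brightest probe sets, which hold 35 of the members, 45.4% were called lower. All 3 neutrophil arrays lay below all 3 MAC1+ arrays for 36 members, against 30.9% of all genes. Against MAC1- myeloblasts, a comparison that shares the neutrophil arrays, 35 of 41 members fell and 0 rose (30.0% of all genes lower, 22.6% higher), with a median of -1.10, or 2.15-fold. The neutrophil arrays lay below all MAC1- arrays for 37 members, against 32.6% of all genes. On arrays centred on their medians 31 members fell against MAC1+ myeloblasts and 0 rose, where 6131 genes of all tested were higher and 4267 lower, in place of 3591 and 5163. On the same scaling 28 members fell and 1 rose against MAC1- myeloblasts, where 8147 genes of all tested were higher and 4233 lower, in place of 4109 and 5461. In RNA of whole populations, fewer cells with a transcript and less of it per cell cannot be told apart.

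**Figure D1:**
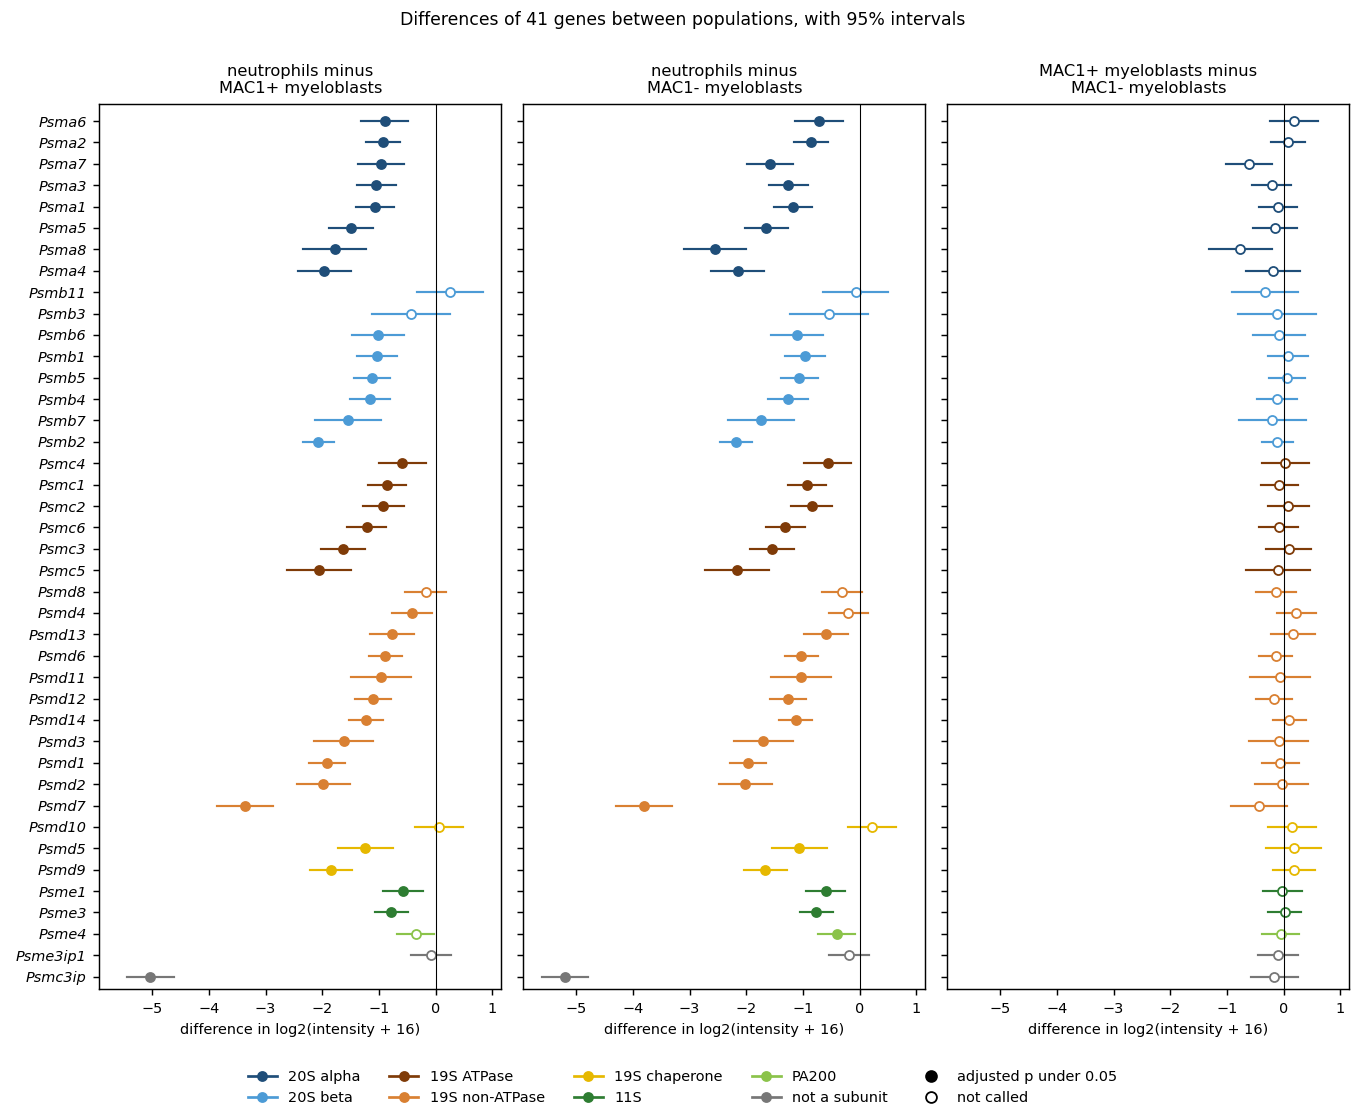
Difference of each of the 41 genes in log2(intensity + 16) with its 95% interval, in 3 panels: neutrophils minus MAC1+ myeloblasts, neutrophils minus MAC1- myeloblasts, and MAC1+ minus MAC1- myeloblasts; colours mark the class and filled points passed the adjusted p of 0.05. In each of the first panels 35 points are filled, all below 0, with Psmc3ip and Psmd7 farthest to the left, and in the last none is filled.

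By particle, the median difference between neutrophils and MAC1+ myeloblasts was -1.06 for 20S (14 of 16 lower), -1.16 for 19S (18 of 20) and -0.68 for 11S (2 of 2). Counts of lower members here and by class below stand beside 28.4% of all genes lower against MAC1+ and 30.0% against MAC1- myeloblasts. Among the brightest 25% of genes these shares were 45.4% and 43.5%. Groups of 2 or 3 genes are too few to set against such shares. Averaged over its genes, each centred on its own mean of 9 arrays, the 20S particle stood at -0.82 ± 0.06 in neutrophils, 0.33 ± 0.06 in MAC1+ myeloblasts and 0.49 ± 0.09 in MAC1- myeloblasts (SD, n = 3 each). The 19S particle stood at -0.83 ± 0.07, 0.41 ± 0.07 and 0.42 ± 0.06 in the same order, and 11S at -0.46 ± 0.12, 0.23 ± 0.06 and 0.23 ± 0.09. In each of the 3 particles the neutrophil arrays lay below every myeloblast array. The array of neutrophils that stood apart gave -0.76 for 20S and -0.89 for 19S, against -0.81 and -0.88 for 20S and -0.76 and -0.83 for 19S on the other neutrophil arrays.

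**Figure D2:**
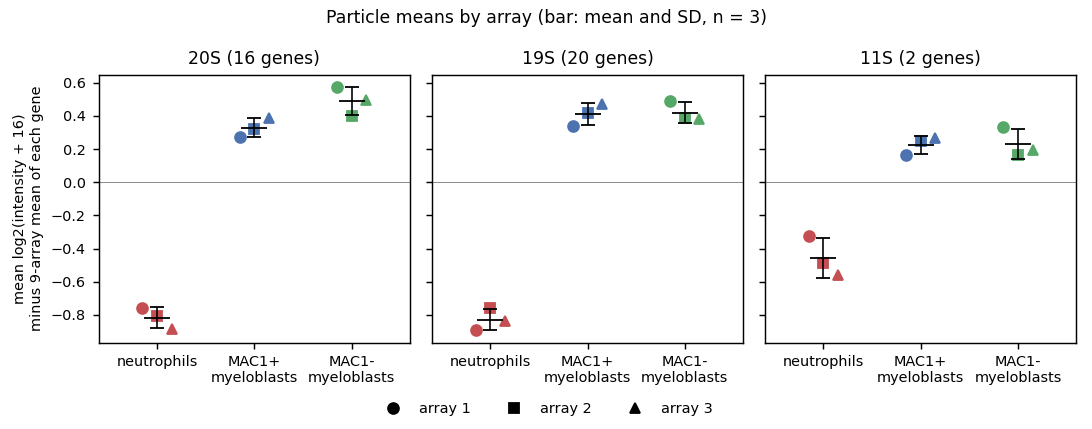
Mean over a particle's genes of log2(intensity + 16), each gene centred on its 9-array mean, for every array of neutrophils, MAC1+ myeloblasts and MAC1- myeloblasts, with the group mean and SD (n = 3). Neutrophil arrays lie below 0 in all 3 panels and every myeloblast array lies above 0.

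The alpha subunits, which form the gate of the barrel, fell without exception: 8 of 8 in neutrophils against MAC1+ myeloblasts, median -1.06, and 8 of 8 against MAC1- myeloblasts, median -1.42. Psma4 fell most against MAC1+ myeloblasts. Its level was 9.83, 10.43 and 10.34 in neutrophils, 12.02, 12.13 and 12.34 in MAC1+ myeloblasts, and 12.63, 12.17 and 12.24 in MAC1- myeloblasts. The neutrophil arrays lay apart from both myeloblast groups, and the difference from MAC1+ myeloblasts was -1.96 ± 0.21 (3.9-fold lower, adjusted p = 4.48e-05, limma). Psma8, the alternative alpha subunit known from male germ cells, was dim and measured 5.71, 5.04 and 5.23 in neutrophils, 6.77, 7.10 and 7.45 in MAC1+ myeloblasts, and 8.08, 7.59 and 7.95 in MAC1- myeloblasts. The 3 groups did not overlap: neutrophils differed by -1.78 ± 0.24 from MAC1+ myeloblasts (adjusted p = 0.00024), and by -2.55 ± 0.24 from MAC1- myeloblasts (adjusted p = 1.83e-05). As a dim gene its difference moved with the constant added before the logarithm, to -1.08 against MAC1+ myeloblasts with 64 in place of 16.

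At the other end of the alpha class stood Psma6, with 12.72, 12.26 and 12.02 in neutrophils, 13.19, 13.24 and 13.28 in MAC1+ myeloblasts, and 13.13, 13.02 and 13.02 in MAC1- myeloblasts. It fell by 0.90 ± 0.18 in neutrophils against MAC1+ myeloblasts (adjusted p = 0.00301), without overlap, and on centred arrays its call against MAC1- myeloblasts was lost (-0.25). Psma2 measured 12.08, 12.13 and 11.88 in neutrophils, 12.94, 12.94 and 12.99 in MAC1+ myeloblasts, and 12.98, 12.80 and 12.87 in MAC1- myeloblasts. Its difference from MAC1+ myeloblasts was -0.93 ± 0.13 (adjusted p = 0.000335), so even the alpha subunits that changed least were close to 2-fold lower, at 1.87 and 1.91. The remaining 4 alpha subunits, Psma1, Psma3, Psma5 and Psma7, differed by -1.07, -1.05, -1.49 and -0.97. For Psma1 another probe set of the gene read in the opposite direction, with a difference of 2.13, and the mean of its probe sets was not called (-0.12, adjusted p = 0.459).

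Of the beta subunits 6 of 8 fell against each myeloblast group, among them all 3 that carry the standard protease sites. Psmb5, the chymotrypsin-like subunit, measured 11.82, 11.69 and 11.47 in neutrophils, 12.72, 12.74 and 12.89 in MAC1+ myeloblasts, and 12.79, 12.69 and 12.69 in MAC1- myeloblasts. All neutrophil arrays lay below every myeloblast array, and the difference from MAC1+ myeloblasts was -1.12 ± 0.14 (2.18-fold lower, adjusted p = 0.000152). Psmb6, the caspase-like subunit, measured 11.97, 11.44 and 11.26 in neutrophils, 12.49, 12.58 and 12.65 in MAC1+ myeloblasts, and 12.85, 12.55 and 12.57 in MAC1- myeloblasts. Its difference was -1.02 ± 0.20 (2.02-fold lower, adjusted p = 0.00238), again without overlap. Psmb7, the trypsin-like subunit, measured 9.60, 10.56 and 10.66 in neutrophils, 11.86, 11.83 and 11.76 in MAC1+ myeloblasts, and 11.99, 12.10 and 11.96 in MAC1- myeloblasts. Neutrophil array 1 was lowest here, and the difference was -1.55 ± 0.26 (2.92-fold lower, adjusted p = 0.000889).

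Psmb2, a beta subunit without a protease site, fell most in its class, with 9.16, 9.22 and 9.28 in neutrophils, 11.28, 11.32 and 11.26 in MAC1+ myeloblasts, and 11.40, 11.33 and 11.46 in MAC1- myeloblasts. Its neutrophil arrays lay within 0.13 of each other, and it was 4.19-fold lower than in MAC1+ myeloblasts (difference -2.07 ± 0.12, adjusted p = 1.1e-06). Psmb3, also without a protease site, did not pass the test on its brightest probe set. It measured 13.03, 11.88 and 11.73 in neutrophils, 12.57, 12.64 and 12.71 in MAC1+ myeloblasts, and 12.84, 12.71 and 12.72 in MAC1- myeloblasts. Neutrophil array 1 was above every MAC1+ array, while the other 2 neutrophil arrays were below them, and the difference of -0.43 ± 0.30 had an adjusted p of 0.278. Without neutrophil array 1 the difference was -0.84 (adjusted p = 0.000281). The other probe set of Psmb3 differed by -0.89 from MAC1+ myeloblasts (adjusted p = 0.00276 over all probe sets, limma), and the mean of both gave -0.66 (adjusted p = 0.0173). Psmb11, the catalytic subunit of the thymus, was near the floor in all groups, with 4.45, 4.50 and 4.91 in neutrophils, 4.54, 4.41 and 4.14 in MAC1+ myeloblasts, and 4.23, 4.66 and 5.19 in MAC1- myeloblasts, and was not called (0.26 ± 0.25, adjusted p = 0.437).

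**Figure D3:**
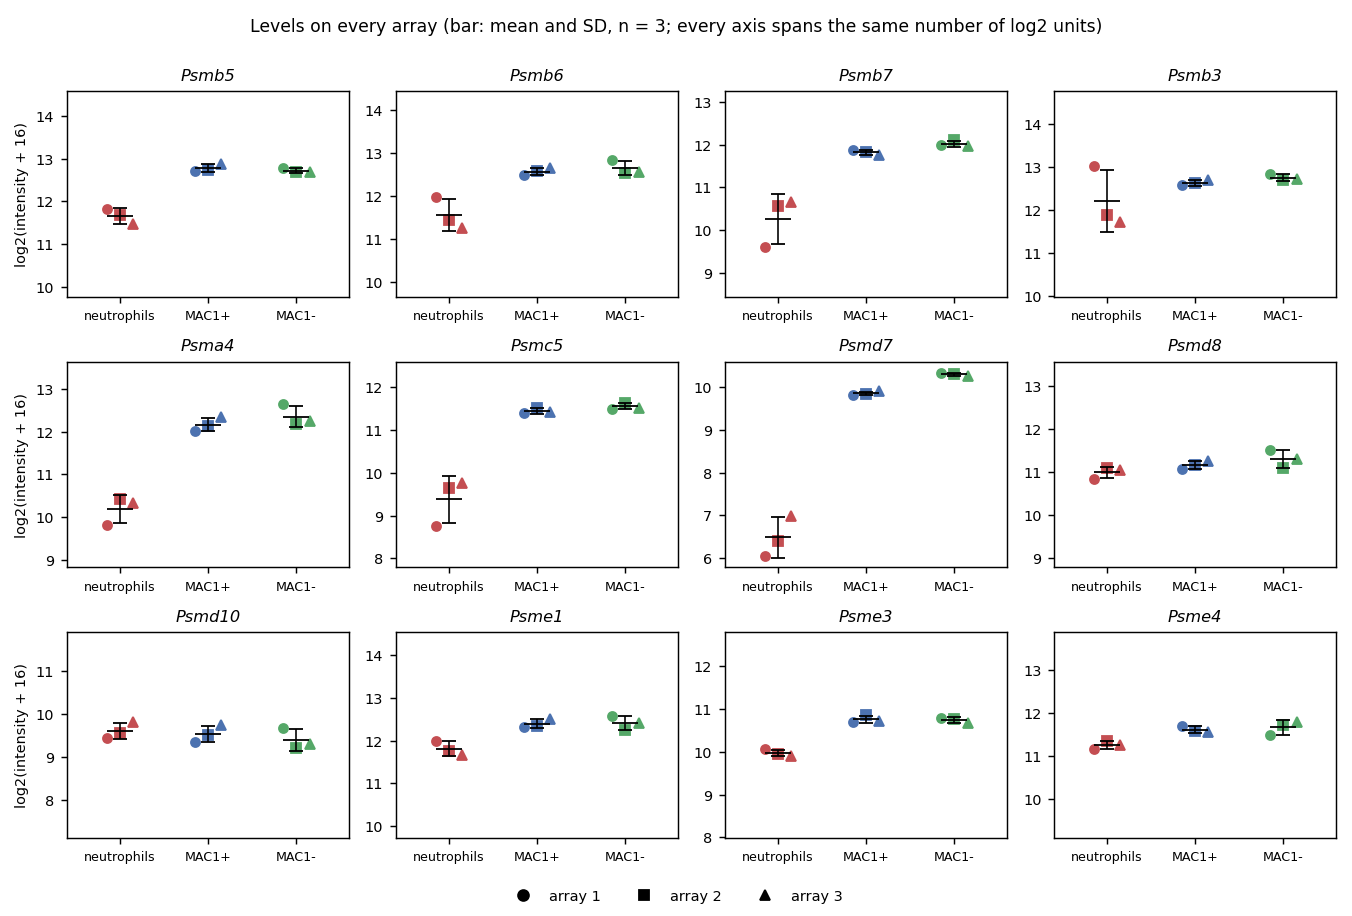
Level as log2(intensity + 16) on each of the 9 arrays for selected members, with the group mean and SD (n = 3); every panel spans the same number of log2 units but is placed at its own level. Psmd7 shows the widest gap between neutrophils and myeloblasts of these panels, and for Psmb3 neutrophil array 1 lies above the myeloblast arrays.

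The 6 ATPases that unfold the substrate all fell in neutrophils, with a median of -1.07 against MAC1+ myeloblasts and -1.12 against MAC1- myeloblasts. Psmc5 fell most, with 8.75, 9.64 and 9.76 in neutrophils, 11.39, 11.51 and 11.43 in MAC1+ myeloblasts, and 11.50, 11.63 and 11.52 in MAC1- myeloblasts. Neutrophil array 1 was the lowest, and the difference of -2.06 ± 0.25 (4.17-fold lower) had an adjusted p of 0.000106. Psmc3 measured 10.52, 11.14 and 10.71 in neutrophils, 12.35, 12.46 and 12.48 in MAC1+ myeloblasts, and 12.37, 12.33 and 12.31 in MAC1- myeloblasts. It did not overlap with the myeloblasts either, and its difference was -1.64 ± 0.17 (adjusted p = 4.55e-05). Psmc1 measured 10.78, 10.81 and 10.43 in neutrophils, 11.51, 11.51 and 11.57 in MAC1+ myeloblasts, and 11.58, 11.61 and 11.63 in MAC1- myeloblasts. The fall of Psmc1 was smaller, at -0.85 ± 0.15 (adjusted p = 0.00101), and was lost when a dim second probe set was averaged in (-0.20, adjusted p = 0.307). On its kept probe set Psmc4 changed least, with 11.88, 11.43 and 11.26 in neutrophils, 12.05, 12.30 and 11.98 in MAC1+ myeloblasts, and 12.11, 12.07 and 12.07 in MAC1- myeloblasts. Its arrays did not overlap, its difference was -0.59 ± 0.18 (adjusted p = 0.0254), and the call was lost without neutrophil array 2 or 3 (-0.54 and -0.46), without MAC1+ array 1 or 2 (-0.62 and -0.50), and on arrays centred on their medians (-0.31). The other probe set of Psmc4 differed by -1.49 from MAC1+ and -1.37 from MAC1- myeloblasts (adjusted p = 0.000112 and 0.000151 over all probe sets, limma). Psmc2 and Psmc6 differed by -0.93 and -1.22.

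Among the non-ATPase subunits 10 of 11 fell against MAC1+ myeloblasts and 9 of 11 against MAC1- myeloblasts. Psmd7, which pairs with the deubiquitinase Psmd14 in the lid, had the largest difference of any subunit, with 6.06, 6.41 and 6.99 in neutrophils, 9.82, 9.84 and 9.89 in MAC1+ myeloblasts, and 10.31, 10.31 and 10.25 in MAC1- myeloblasts. It was 10.3-fold lower than in MAC1+ myeloblasts (difference -3.36 ± 0.22, adjusted p = 1.87e-06), and 13.9-fold lower than in MAC1- myeloblasts. The other 2 probe sets of Psmd7 did not show this fall: their differences from MAC1+ myeloblasts were 0.83 and 0.13 (adjusted p = 0.44 and 0.76 over all probe sets, limma), and the mean of all 3 gave -0.80. Psmd14 itself, which removes ubiquitin from the substrate, differed by -1.23 ± 0.13 (adjusted p = 4.44e-05).

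Psmd2, a scaffold subunit that binds ubiquitin-like domains, measured 10.12, 10.68 and 10.89 in neutrophils, 12.48, 12.44 and 12.71 in MAC1+ myeloblasts, and 12.67, 12.54 and 12.54 in MAC1- myeloblasts. Its difference was -1.98 ± 0.20 (3.95-fold lower, adjusted p = 3.83e-05), close to that of Psmd1, its partner scaffold, at -1.91 ± 0.14. Psmd8, a lid subunit, did not pass in either comparison. It measured 10.84, 11.09 and 11.05 in neutrophils, 11.08, 11.17 and 11.26 in MAC1+ myeloblasts, and 11.51, 11.09 and 11.30 in MAC1- myeloblasts, the neutrophil and MAC1+ arrays overlapped, and the difference was -0.18 ± 0.16 (adjusted p = 0.383, 95% interval -0.53 to 0.18). The ubiquitin receptor Psmd4 was just inside the threshold against MAC1+ myeloblasts (-0.42 ± 0.15, adjusted p = 0.0487) and outside it against MAC1- myeloblasts (-0.20 ± 0.15, adjusted p = 0.306). Its first call was lost on leaving out any single array other than neutrophil array 2, with differences between -0.48 and -0.34. It was also lost on centred arrays (-0.13, adjusted p = 0.529), with quantile normalization (-0.24, adjusted p = 0.226) and with the mean of its probe sets (-0.29, adjusted p = 0.508), and the replicate block gave an adjusted p of 0.0985. Against MAC1- myeloblasts a dim probe set of Psmd4 was called higher in neutrophils (2.22, adjusted p = 0.00845 over all probe sets, limma). Its remaining probe set differed by -0.96 there without being called. The 6 other non-ATPase subunits, Psmd3, Psmd6, Psmd11, Psmd12, Psmd13 and Psmd14, differed by between -1.62 and -0.77 and all were called against MAC1+ myeloblasts. On centred arrays Psmd13 lost its call against MAC1+ (-0.48, adjusted p = 0.0565) and MAC1- myeloblasts (-0.13, adjusted p = 0.557). Psmd11 had probe sets called in both directions, and the mean of its probe sets gave -0.14 (adjusted p = 0.406).

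Of the 3 chaperones that assemble the ATPase ring 2 fell, where 28.4% of all genes were called lower against MAC1+ myeloblasts. Psmd5 and Psmd9 fell, by 1.25 ± 0.21 and 1.85 ± 0.17 against MAC1+ myeloblasts (adjusted p = 0.00104 and 1.45e-05). For Psmd9 the other 2 probe sets read 0.73 and 1.89 without being called, and the mean of its probe sets was 0.26. Psmd10, known as gankyrin, was not called. It measured 9.43, 9.56 and 9.80 in neutrophils, 9.35, 9.51 and 9.73 in MAC1+ myeloblasts, and 9.67, 9.19 and 9.29 in MAC1- myeloblasts. The 3 groups overlapped, and the difference from MAC1+ myeloblasts was 0.07 ± 0.19 (adjusted p = 0.795, 95% interval -0.36 to 0.49). Against MAC1- myeloblasts Psmd10 was called higher once arrays were centred on their medians (0.68) or quantile normalized (0.52), against 0.21 as deposited.

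The activators had smaller differences than the median subunit of the particles they bind. Psme1, a subunit of the cytoplasmic 11S ring induced by interferon, measured 12.00, 11.77 and 11.67 in neutrophils, 12.33, 12.34 and 12.51 in MAC1+ myeloblasts, and 12.57, 12.25 and 12.42 in MAC1- myeloblasts. Its difference from MAC1+ myeloblasts was -0.58 ± 0.15 (1.49-fold lower, adjusted p = 0.0123), without overlap, and it was not called on centred arrays (-0.30). Psme3, which forms the nuclear 11S ring, measured 10.05, 9.95 and 9.91 in neutrophils, 10.69, 10.86 and 10.72 in MAC1+ myeloblasts, and 10.78, 10.77 and 10.66 in MAC1- myeloblasts. The difference was -0.79 ± 0.13 (adjusted p = 0.000766), and another of its probe sets had a larger difference, of -2.50. Psme4, the PA200 activator, measured 11.17, 11.35 and 11.25 in neutrophils, 11.70, 11.57 and 11.56 in MAC1+ myeloblasts, and 11.48, 11.72 and 11.79 in MAC1- myeloblasts. All neutrophil arrays were below the myeloblast arrays, yet the difference of -0.35 ± 0.14 from MAC1+ myeloblasts did not pass (adjusted p = 0.0699), while that of -0.40 ± 0.14 from MAC1- myeloblasts did (adjusted p = 0.0395). The second call was lost on leaving out any of 6 arrays (neutrophil array 3, the 3 MAC1+ arrays, and MAC1- arrays 2 and 3), with differences between -0.40 and -0.34, and on centred arrays the value turned to 0.06. A dim probe set of Psme4 was called higher in neutrophils against both groups (limma over all probe sets). It differed by 1.203 from MAC1+ and 1.38 from MAC1- myeloblasts (adjusted p = 0.0442 and 0.023). Another, near the floor, was called higher against MAC1+ myeloblasts alone (0.63, adjusted p = 0.0196). The remaining probe sets of Psme4 differed from MAC1+ myeloblasts by -0.66, -0.53 and 0.45 without being called. Whether the activators differ from the particles was not tested.

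Of the 2 genes that share the symbol without being subunits, 1 fell, where 28.4% of all genes were called lower against MAC1+ myeloblasts. Psmc3ip, a partner of the meiotic recombinases also known as Hop2, had the largest fall of all 41, with 5.57, 4.97 and 5.33 in neutrophils, 10.13, 10.44 and 10.39 in MAC1+ myeloblasts, and 10.56, 10.48 and 10.42 in MAC1- myeloblasts. It was near the floor in neutrophils and 32.8-fold lower than in MAC1+ myeloblasts on this scale (difference -5.03 ± 0.18, adjusted p = 9.03e-08); the difference was -5.74 with 1 added in place of 16 and -3.93 with 64. Psme3ip1, which binds the nuclear 11S subunit Psme3, measured 10.07, 10.36 and 10.40 in neutrophils, 10.30, 10.24 and 10.55 in MAC1+ myeloblasts, and 10.56, 10.44 and 10.41 in MAC1- myeloblasts. It was not called (-0.09 ± 0.15, adjusted p = 0.668).

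Replicate arrays of neutrophils lay farther apart than those of myeloblasts. The range over the 3 arrays had a median over members of 0.46 in neutrophils, 0.16 in MAC1+ myeloblasts and 0.14 in MAC1- myeloblasts, and exceeded 0.5 for 18, 1 and 1 members. Array 1 of the neutrophils was the highest for 15 members and the lowest for 20. The widest ranges in neutrophils were those of Psmb3 (1.30), Psmb7 (1.06), Psmc5 (1.02) and Psmd11 (0.98). Array 1 was high for Psmb3 and Psmd11 and low for Psmb7 and Psmc5. Without it 35 members were still called lower against MAC1+ myeloblasts and 36 against MAC1- myeloblasts.

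Between the myeloblast groups no member was called. For MAC1+ over MAC1- myeloblasts limma called 0 of 41 members in either direction, where 6.31% of all genes were called higher and 5.51% lower, and 2 members had an unadjusted p under 0.05. The median difference was -0.08. The groups did not overlap for 15 members (36.6%), against 39.9% of all genes. Of these, 14 were lower in MAC1+ myeloblasts and 1, Psma6, was higher, against 20.1% and 19.8% of all genes. The 95% interval of the difference lay within 1 log2 unit on either side of 0 for 39 of 41. The exceptions were 2 alpha subunits that can take the same place in the ring. Psma7 measured 11.34, 11.51 and 11.51 in MAC1+ myeloblasts and 12.31, 11.88 and 12.02 in MAC1- myeloblasts, a difference of -0.61 ± 0.18 (adjusted p = 0.0595, 95% interval -1.02 to -0.21). Psma8 differed by -0.77 ± 0.24 (adjusted p = 0.083, 95% interval -1.32 to -0.21). Both were called lower in MAC1+ myeloblasts without neutrophil array 1, which enters through the shared estimate of spread, with adjusted p = 0.0118 for Psma7 and 0.0266 for Psma8.

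Genes for the assembly of the proteasome were also lower. All 7 measured assembly chaperones and inhibitors were lower in neutrophils than in MAC1+ myeloblasts, where 28.4% of all genes were called lower, with a median of -1.86. Psmg2 and Psmg1, which pair to seat the alpha ring, differed by -4.10 ± 0.22 and -3.63 ± 0.17 (adjusted p = 5.39e-07 and 2.8e-07). Psmf1, an inhibitor of the 20S core, differed by -2.01 ± 0.27 (adjusted p = 0.000197). Ecpas, which tethers 19S to 20S, averaged 7.53 ± 1.54 in neutrophils and 9.38 ± 0.13 in MAC1+ myeloblasts (SD, n = 3 each), and its difference of -1.86 ± 0.61 (adjusted p = 0.0332) was -0.97 without neutrophil array 1 and lost its call without any MAC1+ array or without MAC1- array 1 or 2. With quantile normalization the calls of Ecpas, Psmg3 and Psmg4 were lost (-1.71, -0.30 and -1.48).

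Of the shuttle factors and the segregase that bring substrates, 6 of 7 were lower and 1 was higher, where 28.4% of all genes were lower and 19.7% higher. Ubqln4 and Rad23b, which carry ubiquitylated proteins to 19S, differed by -2.80 ± 0.18 and -2.05 ± 0.20 (adjusted p = 1.5e-06 and 2.35e-05). Ufd1, a cofactor of the segregase Vcp, rose by 0.54 ± 0.15 (adjusted p = 0.0161), a call that was lost without MAC1+ array 1 (0.49, adjusted p = 0.0577) and with the mean of its probe sets (0.28, adjusted p = 0.112), of which the second read 0.03. Vcp itself, the ATPase that extracts ubiquitylated proteins, differed by -0.72 ± 0.16 (adjusted p = 0.00471) on its brightest probe set. The second probe set of Vcp was called in the opposite direction (1.48, adjusted p = 0.00204 over all probe sets, limma), and the mean of its probe sets gave 0.38. Among subunits and deubiquitinases with other symbols, 1 of 3 was lower, near the 28.4% of all genes. It was the deubiquitinase Uchl5 at -1.95 ± 0.18 (adjusted p = 1.8e-05). Sem1, a small subunit of the lid, differed by -0.40 ± 0.16 (adjusted p = 0.071), and was called lower without neutrophil array 1 (-0.56, adjusted p = 0.00247) and, at adjusted p = 0.0369 and 0.0395, with 64 added and with dim genes omitted. Usp14, a second deubiquitinase of 19S, was not called on its brightest probe set (-0.31), but 2 other probe sets of it differed by -5.07 and -3.96. Uba6, an E1 enzyme that activates ubiquitin and the only measured gene of its list, differed by -1.86 ± 0.30 (adjusted p = 0.000707).

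Of 6 measured regulators of proteasome transcription, 1 was lower and 1 higher in neutrophils than in MAC1+ myeloblasts, where 28.4% of all genes were lower and 19.7% higher. Ngly1, the glycanase that helps activate the Nfe2l1 protein, rose by 1.54 ± 0.14 in neutrophils against MAC1+ myeloblasts (adjusted p = 1.75e-05). Nfya, a subunit of NF-Y, differed by -1.29 ± 0.24 (adjusted p = 0.00155). Nfe2l1 itself had a difference of 0.37 ± 0.16 (adjusted p = 0.0844), which passed without neutrophil array 1 (0.44, adjusted p = 0.0319) and on centred arrays (0.65). Nfe2l2, its relative in the oxidative stress response, averaged 12.38 ± 0.10 in neutrophils, 12.06 ± 0.09 in MAC1+ myeloblasts and 11.42 ± 0.04 in MAC1- myeloblasts (SD, n = 3 each). It was higher in neutrophils than in MAC1- myeloblasts by 0.97 ± 0.13 (adjusted p = 0.000173), and its difference from MAC1+ myeloblasts was 0.32 ± 0.13 (adjusted p = 0.0698). The second value passed without neutrophil array 1 (0.37, adjusted p = 0.0182), on centred arrays (0.60, adjusted p = 0.0113), with quantile normalization (0.58, adjusted p = 0.0163), with 64 added and without dim genes. Nfyb and Nfyc, the other subunits of NF-Y, differed by -0.47 ± 0.21 and -0.27 ± 0.19 (adjusted p = 0.0919 and 0.278), and both were called lower without neutrophil array 1 (-0.71 and -0.50, adjusted p = 0.00097 and 0.0042). More of the 6 were thus called without that array, and the shares of all genes called in that setting were not set beside them.

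**Figure D4:**
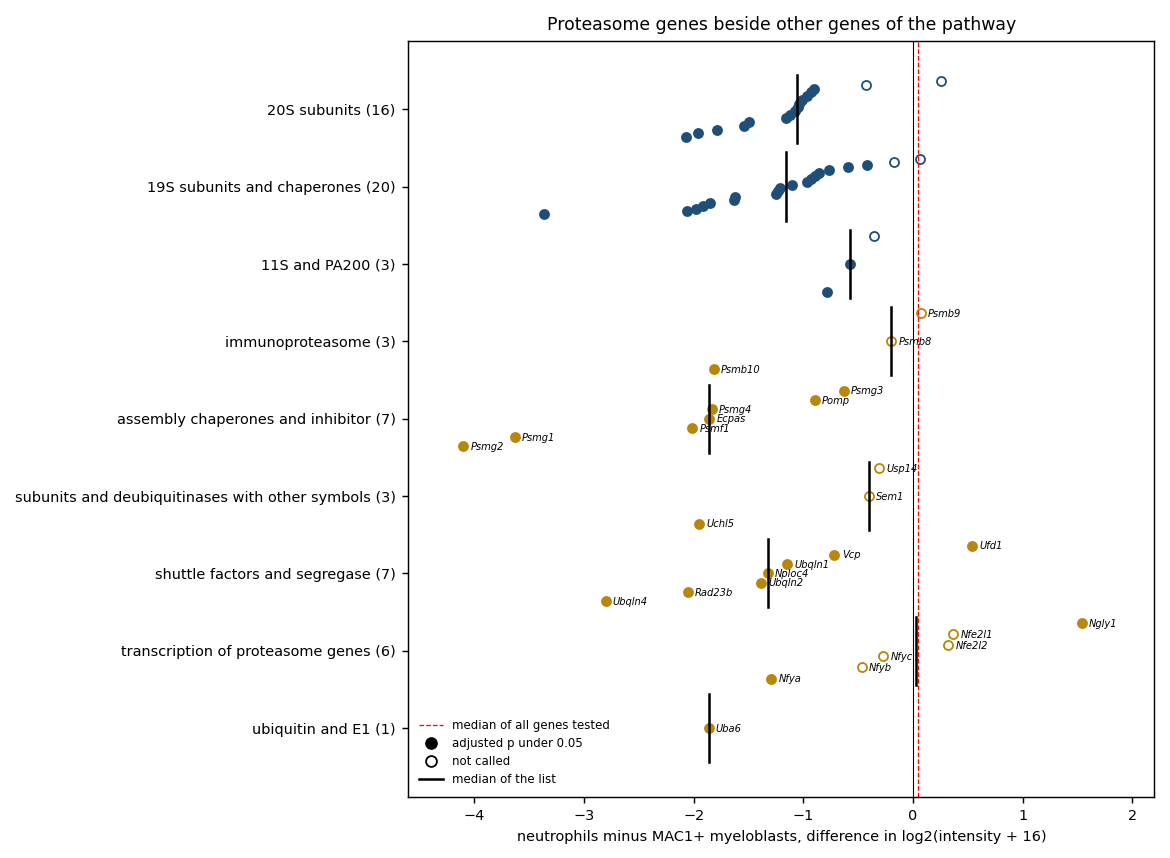
Difference between neutrophils and MAC1+ myeloblasts in log2(intensity + 16) for the proteasome genes by particle and for other genes of the pathway; filled points passed the adjusted p of 0.05, black bars are list medians and the dashed line is the median of all genes. Most subunits, the assembly chaperones and most shuttle factors lie left of 0, while Ngly1 and Ufd1 are the filled points to its right.

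The catalytic subunits were set beside their interferon-induced counterparts Psmb8, Psmb9 and Psmb10, which replace Psmb5, Psmb6 and Psmb7 in the immunoproteasome. Against MAC1+ myeloblasts 1 of these 3 was lower, near the 28.4% of all genes: Psmb10 at -1.82 ± 0.17 (adjusted p = 1.68e-05). Psmb8 and Psmb9 differed by -0.20 ± 0.13 and 0.07 ± 0.15 (adjusted p = 0.241 and 0.738). In MAC1+ over MAC1- myeloblasts Psmb8 fell by 0.89 ± 0.13 and Psmb10 by 0.67 ± 0.17 (adjusted p = 0.00197 and 0.0318), and the call of Psmb10 was lost without any single array of either myeloblast group, with differences between -0.71 and -0.61. The mean of the monocyte markers given above was lower in MAC1+ than in MAC1- myeloblasts, and whether this bears on Psmb8 and Psmb10 was not tested.

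Within each array the log2 ratio of counterpart to standard subunit shows whether the pair changed unequally; its own level, of different probes, is not interpretable. The ratio of Psmb9 to Psmb6 was 0.19, 0.45 and 0.51 in neutrophils, -0.66, -0.71 and -0.73 in MAC1+ myeloblasts and -0.58, -0.52 and -0.49 in MAC1- myeloblasts. The neutrophil arrays lay above all others, by 1.09 over MAC1+ and 0.91 over MAC1- myeloblasts (exact permutation test, two-sided p = 0.1, the smallest that 3 against 3 arrays allow, adjusted p = 0.15 over 9 tests). The ratio of Psmb8 to Psmb5 averaged -0.62 ± 0.10 in neutrophils, -1.55 ± 0.07 in MAC1+ myeloblasts and -0.60 ± 0.04 in MAC1- myeloblasts (SD, n = 3 each). MAC1+ myeloblasts lay below both other groups, and neutrophils overlapped MAC1- myeloblasts (exact p = 0.7). For Psmb10 to Psmb7 neutrophil arrays 1 to 3 gave 0.43, -0.82 and -1.15, and overlapped both myeloblast groups (exact p = 0.6 against MAC1+ and 0.4 against MAC1- myeloblasts).

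**Figure D5:**
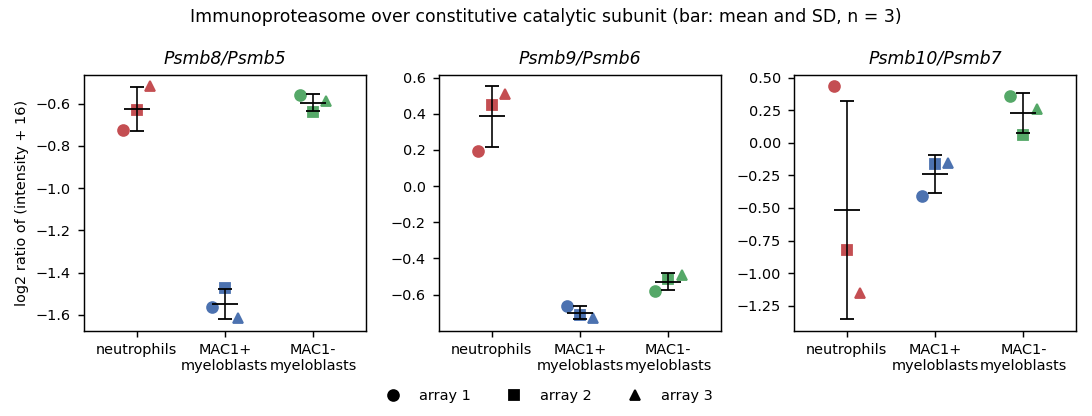
Log2 ratio of (intensity + 16) of an interferon-induced catalytic subunit to its standard counterpart on each array of neutrophils, MAC1+ myeloblasts and MAC1- myeloblasts, with the group mean and SD (n = 3) and a separate axis for each ratio. For Psmb9 to Psmb6 all 3 neutrophil arrays lie above all 6 myeloblast arrays; the height of a ratio itself, set by different probes, is not interpretable.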

How the data were processed

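The authors deposited linear intensity values of 45101 probe sets on 9 arrays. Per the labels' protocols, RNA was purified on columns, amplified in a two-cycle kit and labelled with biotin; their summary method and scaling were not given in the sources used here. The mean intensity per array lay between 549.4 and 727.4 and the median between 39.1 and 61.8, so arrays were not forced to a common distribution. Precision is limited by the number of arrays.

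Of the probe sets, 34945 name 1 gene by the platform annotation, 932 several and 9160 none, and 64 are controls; only the first kind was used. The brightest over all 9 arrays stood for a gene, which gave 18193 genes; the 41 members have 87 probe sets and 22 have several. Log2(intensity + 16) was fitted by limma 3.58.1 (R 4.3.3) as 1 model of 3 groups with 3 contrasts and Benjamini-Hochberg adjustment over all genes, and genes with an adjusted p under 0.05 were called. The added 16 understates differences of dim genes. Catalytic ratios were compared by exact permutation tests.

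Values on every array are given for catalytic subunits, activators, the 2 most and 2 least lowered members of each of 4 classes (20S alpha, 20S beta, 19S ATPase, and all Psmd genes as other 19S) and symbol matches that are not subunits. For context lists up to 4 called genes by size are named, or some of them. Ufd1, Nfe2l1, Psmg3 and Psmg4, which this rule did not pick, are also named. Psma7, Psmd4, Psmd14, Usp14, Sem1, Vcp, Nfyb, Nfyc and the counterparts Psmb8 and Psmb9 were described after their values were seen. So were other members given by their difference alone. Members and lists were chosen with earlier results of these data known. Genes of context lists without a probe set of their own were not analysed here. On simulated data of 18193 genes for neutrophils over MAC1+ myeloblasts, with 200 genes changed, 39.4% of changes of 1 log2 unit and 82.8% of changes of 2 were recovered, and 4.86% of calls were false. In the data 5163 genes were called lower and 3591 higher in that comparison, far more than the 200 simulated. These rates therefore do not carry over to the calls made here. Alternatives were quantile normalization, centring of arrays on their medians, offsets of 1 and 64, omission of dim genes (mean level under percentile 40), averaging of probe sets, omission of probe sets with the suffix x or s, a replicate block, and omission of each array.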

Additional observations from a re-analysis of the deposited data

How the results depend on the processing

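The differences of the members were recomputed under 17 alternatives, which gave 696 recomputed values per comparison in all. In direction and side of the threshold 666 were the same for neutrophils over MAC1+ myeloblasts, 664 for neutrophils over MAC1- myeloblasts and 688 for MAC1+ over MAC1- myeloblasts. Members called lower numbered 33 to 35 in neutrophils over MAC1+ myeloblasts and 33 to 36 over MAC1- myeloblasts on leaving out each array, and 0 to 2 in MAC1+ over MAC1- myeloblasts, where Psma7 and Psma8 also made 2 with quantile normalization, with 64 added and without dim genes. With the mean of probe sets Psma1, Psmb1, Psmc1, Psmd4, Psmd9 and Psmd11 lost their calls against MAC1+ myeloblasts, and Psmb3 was called lower. For Psmb1 the difference was then -0.25 (adjusted p = 0.159, limma). Against MAC1- myeloblasts Psma1, Psmc1, Psmd9, Psmd11 and Psme4 lost their calls in this setting, and Psmb3 was called lower. Psmd10 made 1 member higher in neutrophils than in MAC1- myeloblasts with quantile normalization and with centring. Centring moved the median of all genes to 0.33 and 0.51 for neutrophils over MAC1+ and over MAC1- myeloblasts and 0.17 for MAC1+ over MAC1- myeloblasts. It subtracts the array medians over genes, 6.43 to 6.78 in neutrophils, 6.83 to 6.90 in MAC1+ and 7.04 to 7.05 in MAC1- myeloblasts. Every gene of a comparison is thereby shifted by the same amount. Why these medians differ was not tested.

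Median differences of neutrophils over MAC1+ myeloblasts for 20S, 19S and 11S were -0.88, -0.93 and -0.45 with quantile normalization and -0.78, -0.88 and -0.40 with centring. The mean of probe sets gave -1.04 for 19S and -0.88 for 11S, and leaving out each array gave -1.16 to -1.02 for 20S. Over MAC1- myeloblasts they were -1.05, -0.96 and -0.51 with quantile normalization, and -0.75, -0.63 and -0.22 with centring. The mean of probe sets gave -1.02 for 20S and -0.96 for 11S, and leaving out x and s probe sets gave -1.20 for 19S. In MAC1+ over MAC1- myeloblasts centring gave 0.0701, 0.14 and 0.18.

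Some genes changed sign. The mean of probe sets gave 0.26 for Psmd9, 0.25 for Psmg3 and 0.38 for Vcp over MAC1+ myeloblasts, and 0.45 for Psmd9, 0.17 for Psme4 and 0.21 for Vcp over MAC1- myeloblasts. That mean gives every probe set of a gene the same weight, dim or bright. The second probe set of Vcp, called higher, averaged 9.20 in neutrophils. Whether dim probe sets account for the changes of sign was not tested. Centring gave 0.0637 for Psme4 and 0.34 for Sem1 over MAC1- myeloblasts. Arrays of the same number shared only that number: their deviations correlated between -0.31 and 0.13, and the own number was the best match in 5 of 18 cases. With the replicate number as a block 34 members were lower in neutrophils than in MAC1+ myeloblasts, 34 than in MAC1- myeloblasts, and 0 in MAC1+ than in MAC1- myeloblasts. Signal over background could not be assessed, since no detection call was used here.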
